A study of Mus musculus with 2 samples.

Results

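GFI1B and the LSD1-CoREST complex were followed through 9 genes, taken from the gene and transcript tables by Ensembl identifier and matched to mouse symbols. All 9 were found among 43346 Ensembl genes. They are the zinc finger repressors Gfi1b and Gfi1, the demethylases Kdm1a and Kdm1b, the CoREST scaffolds Rcor1, Rcor2 and Rcor3, and the accessory subunits Hmg20b and Phf21a. RNA described as polyadenylated was sequenced with paired ends from G1E-ER4, an immortalized mouse erythroid line. The labels give cells in which Gata1 was restored and estradiol was used to induce differentiation, without a dose or a duration. As background, the parental line has no functional Gata1, and the derivative carries it as a fusion whose activity depends on estradiol. The 2 libraries were the only group, with 68901065 estimated counts in replicate 1 and 51923116 in replicate 2, so no treatment or genotype could be compared. The line stands for 1 immortalized population, and both libraries cite 1 biosample although they are labelled biological replicates, so the spread between them may be technical.

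GFI1B is a DNA-binding repressor needed for the red cell and platelet lineages. Its N-terminal SNAG domain docks into the demethylase LSD1, the product of Kdm1a. LSD1 removes methyl groups from lysine 4 of histone H3 in its mono- and dimethylated states, and it is held on nucleosomes by a CoREST protein in a complex that also holds a histone deacetylase. In mice, loss of Gfi1b or of Kdm1a impairs red cell production.

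The labelled cell type was checked first. All 6 erythroid markers reached 1 TPM (transcript abundance per length, scaled to a fixed library total) in both libraries, with a summed level of 16799 and 19155 TPM in replicates 1 and 2. Gata1 is among them and was restored by design, so its level is no check of the cell type. Most of the sum was globin, with Hba-a1 at 6746 and 8936 TPM and Hbb-bs at 7940 and 7235 TPM. None of 3 megakaryocyte, 5 granulocyte and macrophage, 3 lymphoid, 2 endothelial or 3 neuronal markers reached 1 TPM in both libraries. Their sums ran between 0 and 2.11 TPM, and Ppbp, Itgam, Lyz2, Cd3e, Rag1, Cdh5, Rbfox3 and Snap25 had 0 counts in both. Among all 21474 protein-coding genes 39.0% reached 1 TPM in both libraries, and 8895 had 0 counts in both. The libraries went against their label in one respect. They are labelled male, but 1569 genes of the Y chromosome together held 1 and 6.37 counts in replicates 1 and 2, and Xist held 0 in both. Whether this mismatch with the label touches any value reported here was not tested.

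Of the 9 genes, 8 reached 1 TPM in both libraries, and Gfi1 did not. Among all 21474 protein-coding genes the share was 39.0%, and it was 38.4% with FPKM, 41.0% with counts scaled to a fixed total, 39.7% with posterior TPM and 39.0% without globin and mitochondrial genes, each with 8 of the 9 genes. The 9 levels had a median of 30.1 TPM, against 0.025 TPM for all protein-coding genes and 20.5 TPM for the 8376 that reached 1 TPM in each library, called expressed genes from here on. In bulk RNA, expression in fewer cells and less RNA per cell cannot be told apart. Ordered by mean level, Gfi1b came first, then Hmg20b, Rcor1, Rcor2, Rcor3, Kdm1a, Phf21a, Kdm1b and Gfi1. In 7 of the 8 neighbouring pairs both libraries of the higher gene lay above both libraries of the lower one. The exception was Rcor1 and Rcor2, whose values overlapped, while the lower library of Rcor3 was only 1.02 times the higher library of Kdm1a. An exact two-sided permutation test of 2 values against 2 cannot give a p below 0.333, so the order is described and not tested.

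**Figure D1:**
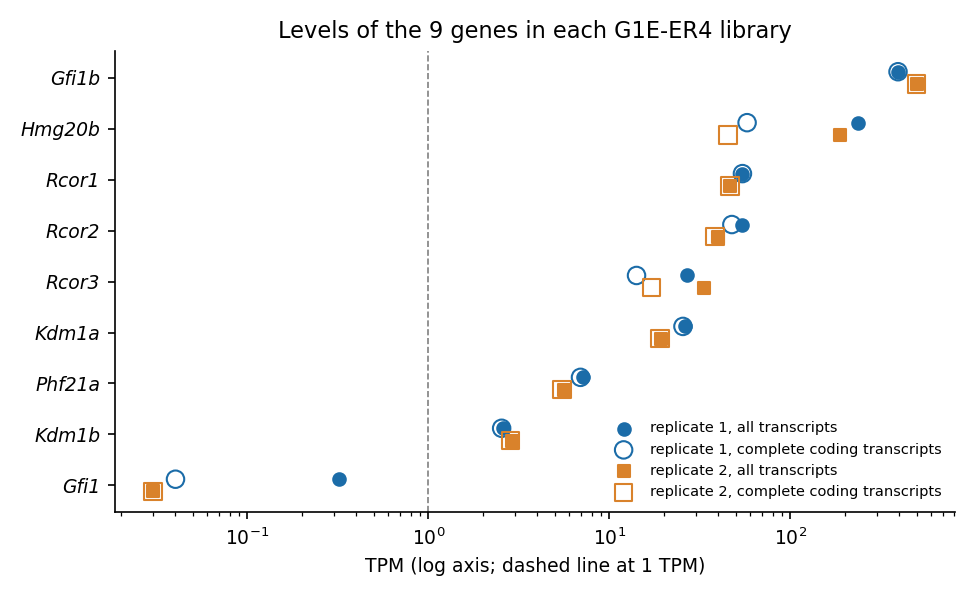
Level of each of the 9 genes in TPM on a log axis, with 1 symbol for each library, filled for all transcripts and open for transcripts with a complete coding sequence. Gfi1b lies at 394 and 499 TPM in replicates 1 and 2 and Gfi1 under 1 TPM in both, and open symbols fall clearly below filled ones in both libraries for Hmg20b and Rcor3.

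Gfi1b (ENSMUSG00000026815, chr2:28609450-28621982, minus strand, mm10) had 39312 and 37354 estimated counts in replicates 1 and 2. Its level was 394 and 499 TPM in replicates 1 and 2, or 447 ± 74.3 TPM (mean ± SD, n = 2). It ranked 299 of 21474 protein-coding genes and lay above 96.4% of the expressed ones. Beside it, Gata1, the erythroid master regulator, stood at 1498 and 2430 TPM, so that Gfi1b held 0.263 and 0.205 of the Gata1 level. Since Gata1 was restored in this line, RNA of an introduced copy and of the gene itself cannot be told apart in that value. The table lists 4 Gfi1b transcripts, of which 2 are coding. They differ by 99 bases in frame at the 5′ end of coding exon 5 of 6 (chr2:28611585-28611683, minus strand, mm10). The long form, Gfi1b-204, keeps them in an exon of 265 bases and has 363 codons, and the short form, Gfi1b-201, starts the exon later, at 166 bases, and has 330 codons. The stretch is shown because it is the whole coding difference between the forms. Sequences are from the GENCODE M21 transcripts on the same build, 5′ to 3′, with the 99 bases in capitals and 12 shared bases on each side in lower case.
Gfi1b-204, long form: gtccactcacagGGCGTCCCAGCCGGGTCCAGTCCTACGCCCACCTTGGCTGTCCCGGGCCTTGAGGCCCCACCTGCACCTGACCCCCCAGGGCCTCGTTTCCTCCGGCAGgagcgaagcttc
Gfi1b-201, short form: gtccactcacaggagcgaagcttc

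The long form carried nearly all of the Gfi1b signal. It had 373 and 458 TPM in replicates 1 and 2, and the short form had 21.6 and 41.6 TPM. As a share of Gfi1b TPM the long form held 94.52% and 91.67%, a mean of 93.1 ± 2.02% (SD, n = 2), and the short form 5.48% and 8.33%. The short form was assigned 1979 and 2870 counts, and the authors' posterior SD of that estimate was 49.4 and 87.5 counts, so both shares lay far above the uncertainty of the assignment within each library. Both noncoding transcripts, Gfi1b-202 and Gfi1b-203, had 0 counts. The 2 coding models also differ by 37 bases at the 5′ end and 5 at the 3′ end outside the coding sequence, 141 bases in all, and which stretch drove the assignment was not tested.

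The zinc fingers include those that contact DNA, and the 99 bases alter the spacing at a single place between them. A search of the translated sequences for the classical C2H2 zinc finger spacing found 6 matches in each Gfi1b form and 6 in the Gfi1 transcript Gfi1-201. The 99 bases encode codons 217 to 249 of the long form and touch 0 of the matches. They fall between match 2, which ends at coding base 642 in both forms, and match 3, which starts at coding base 763 in the long form and 664 in the short form. Matches began at codons 165, 194, 222, 250, 278 and 306 in the short form and at codons 258, 287, 315, 343, 371 and 399 in Gfi1-201, which is the same spacing. In the long form they began at codons 165, 194, 255, 283, 311 and 339, so only the step from match 2 to match 3 differs. The mouse short form as annotated thus keeps all 6 matches.

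**Figure D2:**
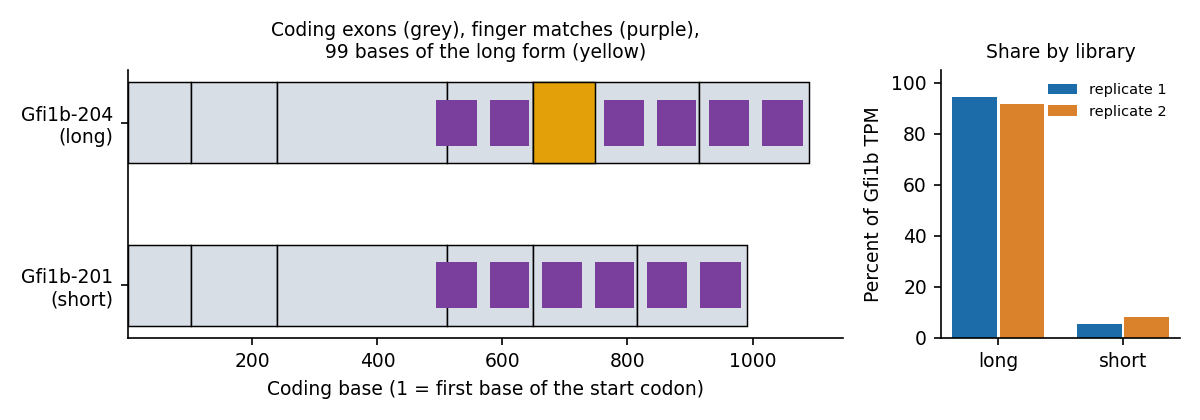
Left, coding exons of both Gfi1b forms drawn to scale in coding bases, with zinc finger matches in purple and the 99 bases of the long form in yellow; right, the share of Gfi1b TPM held by each form in percent, with 1 bar for each library. The yellow stretch lies between finger matches 2 and 3, and the long form holds 94.52% and 91.67% in replicates 1 and 2.

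Gfi1 (ENSMUSG00000029275, chr5:107716657-107726036, minus strand) encodes the paralog of GFI1B, known from granulocytes, lymphocytes and blood stem cells. It had 15 and 4 counts, or 0.32 and 0.03 TPM, in replicates 1 and 2, a mean of 0.175 ± 0.205 TPM (SD, n = 2). In replicate 1, 8.94 of the 15 counts went to Gfi1-204, a model of 689 bases with an incomplete coding sequence, and the other 6.06 to Gfi1-202, which held 12.67% of the TPM. In replicate 2 all 4 went to Gfi1-201, so no form of Gfi1 can be described at this depth. Gfi1b had 1232 and 16644 times the TPM of Gfi1 in replicates 1 and 2, a mean of 8938, and the mean was 2638 with posterior TPM, where Gfi1 stood at 0.33 and 0.12 TPM. By counts the ratios were 2621 (95% interval 1589 to 4683) and 9338 (3647 to 34276), with Clopper-Pearson intervals that cover counting error only. Gfi1b shared no run of 31 bases with any other annotated gene, Gfi1 included. Both proteins open with the SNAG domain, and the first 60 coding bases are shown because this is the end that docks into LSD1. They are from the GENCODE M21 transcripts on mm10 at chr2:28615317-28615376 and chr5:107723779-107723838, both minus strand, with capitals where the paralogs differ.
Gfi1b, first coding bases: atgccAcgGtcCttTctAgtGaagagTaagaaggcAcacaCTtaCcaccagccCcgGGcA
Gfi1, first coding bases: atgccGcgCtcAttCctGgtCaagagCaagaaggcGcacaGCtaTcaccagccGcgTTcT

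Over these 60 bases 45 were identical and 15 differed, and 18 of 20 codons encoded the same residue. Other repressors that reach LSD1 through a SNAG domain or a like N-terminus were scarce in both libraries. Of 9 such genes 0 reached 1 TPM in both libraries, against 39.0% of all protein-coding genes. A count of 0 in both libraries was common, at 8895 of all 21474 protein-coding genes. Snai1, Snai2, Snai3, Scrt2, Insm1, Insm2, Ovol1 and Ovol2 had 0 counts, where a count of 0 allows up to 3 counts in each library, and Scrt1 had 0.25 and 0.2 TPM in replicates 1 and 2. The list summed to 0.25 and 0.2 TPM, against 394 and 499 TPM for Gfi1b.

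Kdm1a (ENSMUSG00000036940, chr4:136550540-136602723, minus strand) encodes LSD1, the catalytic subunit. It had 4479 and 2479 counts, and 26.3 and 19.4 TPM, in replicates 1 and 2, a mean of 22.9 ± 4.91 TPM (SD, n = 2). This level was higher than that of 52.7% of the expressed protein-coding genes, near the middle. Gfi1b had 15.0 and 25.8 times the TPM of Kdm1a in replicates 1 and 2. Kdm1a is spliced with optional exons, shown here because they set the transcripts apart. The exon of 60 bases lies at chr4:136582040-136582099 and the exon of 12 bases, known as a neuronal microexon, at chr4:136563438-136563449, both on the minus strand. Each exon is in capitals with 12 flanking bases in lower case, from GENCODE M21 transcripts.
Kdm1a-202, exon of 60 bases: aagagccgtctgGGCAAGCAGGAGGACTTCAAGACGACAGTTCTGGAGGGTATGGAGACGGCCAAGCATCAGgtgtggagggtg
Kdm1a-208, exon of 12 bases: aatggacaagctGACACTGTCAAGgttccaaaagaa

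Kdm1a-202, which carries the exon of 60 bases, held 75.93% and 82.98% of Kdm1a TPM in replicates 1 and 2, with 3454 and 2084 counts. Kdm1a-203, which lacks it, held 21.05% and 15.22%. The model with the exon led in both libraries, and the posterior SD of its count was 1.87% and 1.74% of all Kdm1a counts. The models are 3028 and 3008 bases long, although their coding sequences differ by 60 bases. They thus also differ outside the coding sequence, and which stretch drove the assignment was not tested. The only annotated transcript with the exon of 12 bases, Kdm1a-208, is an incomplete model of 965 bases and was assigned 0 counts in both libraries. Only reads over those 12 bases can show the exon, and other reads of such an RNA could be assigned to other models, so the estimate sets no limit on the share of Kdm1a RNA that holds it.

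Kdm1b (ENSMUSG00000038080, chr13:47043499-47085279, plus strand) encodes LSD2, the other flavin-dependent histone demethylase, which acts without CoREST. It had 636 and 533 counts, and 2.59 and 2.89 TPM, in replicates 1 and 2, a mean of 2.74 ± 0.212 TPM (SD, n = 2). Kdm1a had 10.2 and 6.71 times its TPM, a mean ratio of 8.44 ± 2.45 (SD, n = 2). Of its runs of 31 bases 8.56% were shared with Dek, whose exons overlap it by 505 bases on the opposite strand and which stood at 1274 and 875 TPM in replicates 1 and 2. The sources used here do not state whether counting used strand, so Kdm1b counts are uncertain, and the share of Dek reads among them was not tested.

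The 3 CoREST scaffolds, which bridge LSD1 to the nucleosome, were all present. Rcor1 (ENSMUSG00000037896, chr12:111039351-111115901, plus strand) had 14181 and 9766 counts and 54.4 and 46.5 TPM in replicates 1 and 2, a mean of 50.5 ± 5.59 TPM. Rcor2 (ENSMUSG00000024968, chr19:7267325-7275225, plus strand), better known from stem and neural cells of mice, had 6324 and 3695 counts and 53.9 and 40.1 TPM, a mean of 47.0 ± 9.75 TPM. Its libraries overlapped those of Rcor1, with a ratio of Rcor1 to Rcor2 of 1.01 in replicate 1 and 1.16 in replicate 2. Rcor3 (ENSMUSG00000037395, chr1:192098546-192138062, minus strand), described in mouse blood cells as a form that can oppose LSD1, had 2222 and 2011 counts and 26.7 and 33.4 TPM, a mean of 30.1 ± 4.73 TPM (SD, n = 2 for each). Rcor1 had 2.04 and 1.39 times its TPM in replicates 1 and 2. Of the runs of 31 bases in Rcor3 8.18% also occurred in other annotated genes, 2211 in number. Of these 1131 shared runs 637 occurred in Gm26879, an antisense gene at 0 TPM in both libraries. Whether reads of the other genes were placed on Rcor3 was not tested.

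Of the summed RCOR level of 135 and 120 TPM in replicates 1 and 2, Rcor1 held 40.3% and 38.8%, Rcor2 39.9% and 33.4%, and Rcor3 19.8% and 27.8%. The order of the shares was the same in both libraries. Counting only transcripts with a complete coding sequence, Rcor3 held 12.2% and 16.8% of 116 and 102 TPM, while Rcor1 held 46.9% and 45.6%. On that measure Rcor3 had 14.1 and 17.2 TPM and lay below Kdm1a, at 25.5 and 19.0 TPM, in both libraries, and the mean ratio of Rcor1 to Rcor3 was 3.28 in place of 1.71. The order of Rcor3 and Kdm1a thus depends on which transcripts are counted.

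Each RCOR gene was spread over several models. Rcor1-201, with 1440 coding bases, held 59.51% and 70.63% of Rcor1 TPM in replicates 1 and 2, and Rcor1-202, with 1146, held 40.49% and 29.37%. For Rcor2 the shorter coding form led, with Rcor2-202 (1437 coding bases) at 52.97% and 63.91%, Rcor2-201 (1569 coding bases) at 35.32% and 31.70%, and the incomplete model Rcor2-204 at 11.54% and 3.46%. Rcor3-207, the longest coding form with 1653 coding bases, held 47.57% and 45.81%. The rest of Rcor3 TPM lay largely in models of 345 to 892 bases. Rcor3-212 without a coding sequence held 17.98% and 10.16%, and Rcor3-208, of 345 bases, held 15.39% and 11.21% on only 46.1 and 33.4 counts. Rcor3-205, classed as a target of nonsense-mediated decay, held 0 and 12.41% in replicates 1 and 2, and Rcor3-214, with an incomplete coding sequence, 6.64% and 11.36%. By counts the picture differed. Rcor3-213, a retained intron model of 3589 bases, held 6.65% and 3.41% of the TPM but 16.5% and 8.77% of the counts. Rcor3-213 was named after its values were seen.

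Hmg20b (ENSMUSG00000020232, chr10:81346048-81350480, minus strand) encodes BRAF35, an HMG-box subunit that also binds GFI1B in mouse red cell precursors. It had 10221 and 6311 counts, and 237 and 189 TPM, in replicates 1 and 2, a mean of 213 ± 33.9 TPM (SD, n = 2). It was the second most abundant of the 9 genes and had 9.01 and 9.77 times the TPM of Kdm1a. Most of that TPM was assigned to models without a coding sequence, however. Transcripts without a coding sequence held 69.97% and 67.12% of Hmg20b TPM in replicates 1 and 2, and those with a complete one held 24.35% and 23.96%, or 57.8 and 45.4 TPM. On the coding measure Hmg20b overlapped Rcor1, at 54.4 and 46.5 TPM.

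The leading Hmg20b model, Hmg20b-207, is classed as a retained intron and held 52.05% and 45.21% of the gene's TPM in replicates 1 and 2, but 31.9% and 27.4% of its counts. It is 597 bases long, lies between 3750 and 4428 bases from the start of a gene of 4433 bases, and has only 38 bases (6.37%) outside the exons of complete coding models. Nearly all of its sequence is thus shared with coding transcripts, and its count rests on how the authors' software divided reads among models. Hmg20b-205, also classed as a retained intron, has 290 of 627 bases (46.3%) outside coding exons and held 15.54% and 18.95%. The coding transcripts Hmg20b-201 and Hmg20b-202, with the same 951 coding bases, held 10.82% and 12.15%, and 11.49% and 10.43%. How much intron-retaining RNA was present was not tested.

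Phf21a (ENSMUSG00000058318, chr2:92093117-92364666, plus strand) encodes BHC80, which reads unmethylated lysine 4 of histone H3. It had 1569 and 957 counts, and 7.15 and 5.64 TPM, in replicates 1 and 2, a mean of 6.4 ± 1.07 TPM (SD, n = 2), and was the least abundant of the complex subunits. Phf21a-208, with 1923 coding bases, held 53.94% and 64.14% of its TPM, and Phf21a-207, with 2064, held 37.75% and 22.64%. Those models differ in a single coding exon, of 23 bases in Phf21a-208 and 164 bases in Phf21a-207. The leading transcript was the same in both libraries for 8 of the 9 genes, all but Gfi1. Kdm1b was the least divided gene, with 97.85% and 98.44% of its TPM in Kdm1b-201.

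**Figure D3:**
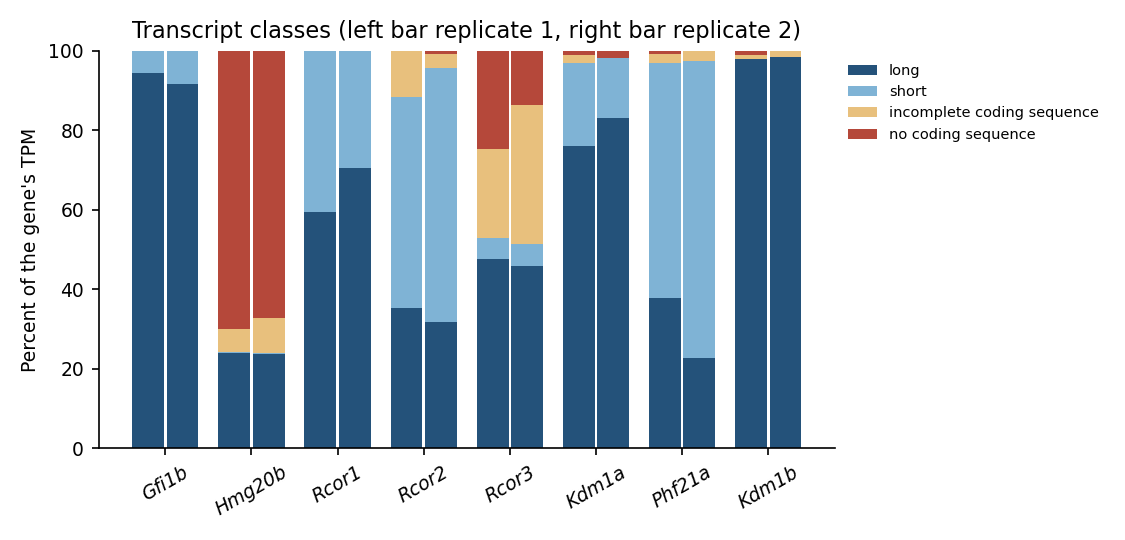
Share of each gene's TPM in percent by transcript class, left bar replicate 1 and right bar replicate 2; long holds every coding exon of the longest complete coding sequence, and short is any other complete one. Transcripts without a coding sequence fill 69.97% and 67.12% of Hmg20b in replicates 1 and 2, and Gfi1 is left out because of its 15 and 4 counts.

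The other proteins of the complex were mostly present. Of 10 listed partners 9 reached 1 TPM in both libraries, against 39.0% of all protein-coding genes. The median of the list was 51.6 TPM, and its sum was 789 and 678 TPM in replicates 1 and 2. The corepressor Ctbp1 led with 328 and 256 TPM, followed by the scaffold protein Gse1 with 138 and 123 TPM, the zinc finger protein Rreb1 with 80.2 and 81.9 TPM and the deacetylase Hdac1 with 68.7 and 58.0 TPM. Zmym2 was the exception, at 0.89 and 0.58 TPM. Hdac1 had 1.43 and 1.65 times the TPM of its paralog Hdac2, which had 48.1 and 35.2 TPM, and 2.61 and 2.99 times that of Kdm1a. Hdac2 was named after its values were seen.

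Enzymes acting on the same histone residue were present as well. For the counts below, the share of all protein-coding genes at 1 TPM in both libraries was 39.0%. Of 4 JmjC demethylases, which also remove the trimethyl mark that LSD1 cannot, 3 reached 1 TPM in both libraries. Kdm5c had 67.4 and 70.4 TPM in replicates 1 and 2, Kdm5b 44.9 and 33.9 TPM and Kdm5a 28.3 and 26.4 TPM, while the Y-linked Kdm5d had 0 counts. Each of the 3 lay above Kdm1a in both libraries. All 6 listed methyltransferases of lysine 4 reached 1 TPM, led by Kmt2b with 148 and 139 TPM, Setd1a with 114 and 99.3 TPM, Setd1b with 98.8 and 85.7 TPM and Kmt2d with 38.5 and 38.6 TPM. Their sum was 418 and 380 TPM and their median 65.4 TPM.

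**Figure D4:**
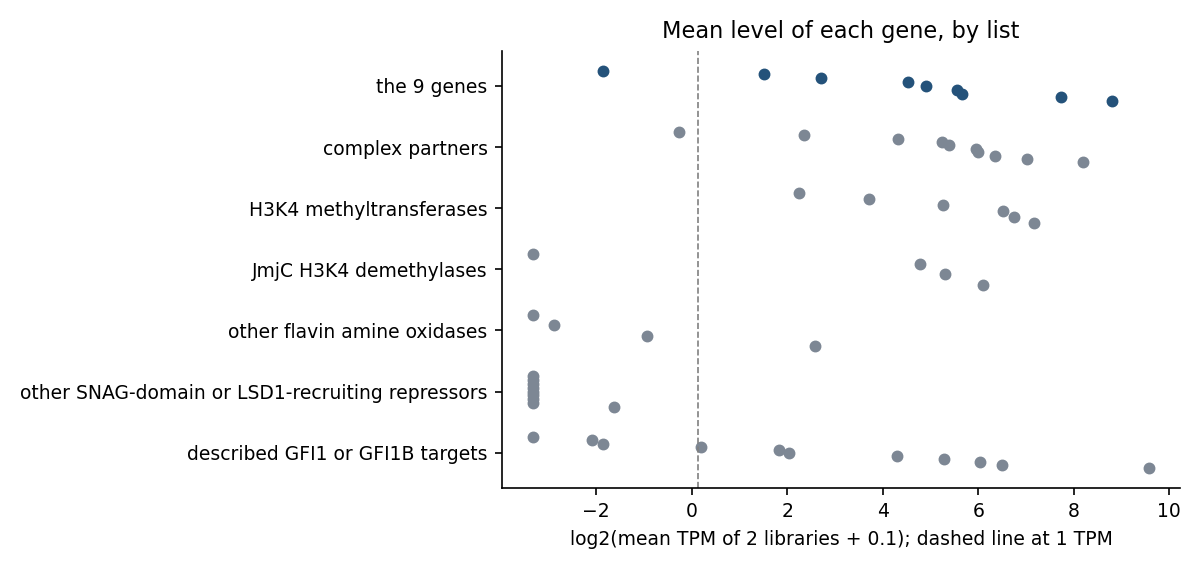
Mean level over both libraries as log2(TPM + 0.1), with 1 dot for each gene, grouped by list; the dashed line marks 1 TPM. Of the 10 complex partners 9 lie right of the line, against 0 of the 9 other SNAG-domain or LSD1-recruiting repressors.

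The libraries were then set against each other gene by gene, with an exact two-sided binomial test on counts scaled by TMM and Benjamini-Hochberg adjustment over the 10863 genes whose 2 counts averaged 10 or more. This test compares these 2 libraries and not conditions, and it holds counting error alone. Of the 8 genes tested 7 differed at an adjusted p under 0.05, against 69.1% of all genes tested, so a call is the usual outcome at this depth. Higher in replicate 1 were 4 genes, against 34.4% of all genes, and lower in it were 3, against 34.7%. Gfi1 was too low to test.

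Gfi1b was lower in replicate 1, by 0.44 on the log2 scale, or 1.36 times higher in replicate 2, with an adjusted p so small that it was computed as 0. Rcor3 was lower in replicate 1 as well, at -0.37 (adjusted p = 3.02e-16), as was Kdm1b at -0.26 (adjusted p = 0.00405). Kdm1a was higher in replicate 1 by 0.34 on the same scale (adjusted p = 1.05e-20), or 1.26 times. Gfi1b and Kdm1a thus lay on opposite sides between the libraries. Their TPM ratios of 15.0 and 25.8 restate this from the same reads, and a relation between the 2 genes was not tested. Rcor2 (0.26, adjusted p = 5.61e-18), Hmg20b (0.18, adjusted p = 1.12e-14) and Phf21a (0.20, adjusted p = 0.00138) were also higher in replicate 1, and Rcor1 did not pass (0.02, adjusted p = 0.267). Adjusted values are from the exact binomial test.

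These differences were not large beside those of other genes. The log2 ratios of the 8 genes ran from -0.44 to 0.34 with a median size of 0.26, against a median size of 0.30 over all genes tested. All 8 lay between the 5th and 95th percentiles of all genes, at -1.27 and 0.69, a range that holds 90% of genes by definition. Gfi1b, the largest of them, exceeded 66.3% of all genes in size. With a coefficient of variation of 0.1 between libraries added to the counting error, 0 of the 8 were called, against 19.0% of all genes, and with the common coefficient of variation of 0.3 estimated by edgeR 0 were called, against 1.60%. With counting error alone, 7 were called under each other setting, against a background of 68.9% of genes with DESeq2 size factors, 72.0% with library totals, 48.0% without a count filter, 77.9% at a mean of 100 or more counts and 68.9% with posterior counts. With library totals Kdm1b lost its call (log2 ratio -0.15, adjusted p = 0.0949) and Rcor1 gained one (0.13, adjusted p = 1.70e-11), both by the exact binomial test.

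**Figure D5:**
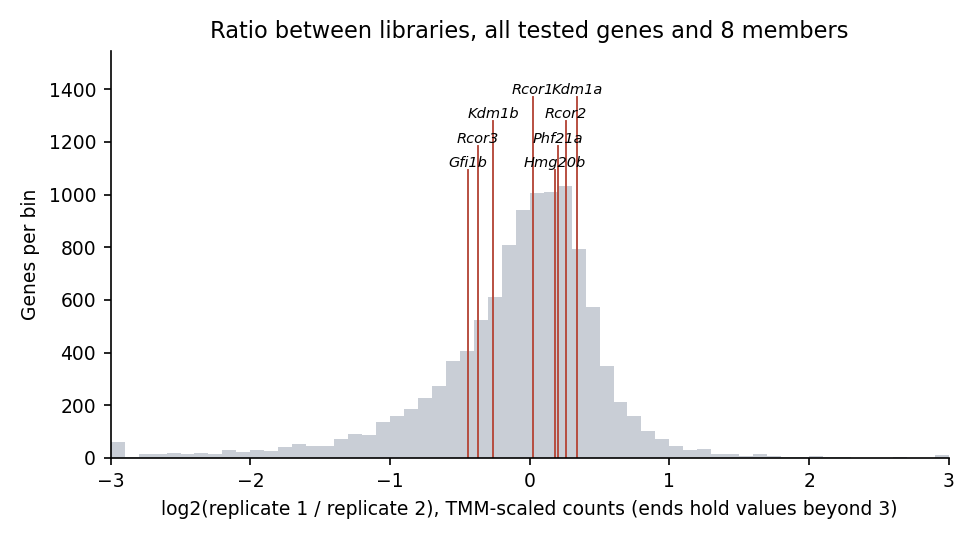
Histogram of the log2 ratio of replicate 1 to replicate 2 over the genes tested, in TMM-scaled counts, with red lines at the 8 genes tested; bars at both ends also hold values beyond 3. The 8 lines stand between -0.44 for Gfi1b and 0.34 for Kdm1a, inside the bulk of the histogram.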

How the data were processed

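RNA-seq of 2 G1E-ER4 libraries was used, with a gene table and a transcript table for each. Expected counts and posterior mean counts are the authors' estimated counts, which need not be whole, and the posterior SD of a count is given beside them, per the file headers. TPM and FPKM were deposited by the authors, and each transcript's part of its gene is a deposited percent. Reads were placed on mm10 with GENCODE M4, per the labels and readme files. The aligner, quantifier and strand setting were not given in the sources used here. Of 69691 features in a gene table, 26345 were no Ensembl genes and had 0 and 1 count in all.

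Names, coding sequences and loci came from GENCODE M21 on the same build, matched without version, for 42462 genes and 76 of 77 transcripts of the 9 genes, 74 of them with the same length. A coding sequence was called complete where the transcript is classed as protein-coding and neither end is marked as missing. Levels are given as mean and SD over 1 group of 2 libraries, and detection required 1 TPM in each. For the test between libraries, expected counts were rounded to whole numbers and scaled by TMM from edgeR 4.0.16 in R 4.3.3, and the exact binomial test ran in scipy 1.17.1 under Python 3.11.15. It was tested on simulated counts that held counting error alone, so that check does not cover variation between libraries. With 1 library on each side no edgeR or DESeq2 test could be fitted, and DESeq2 1.42.0 gave size factors only. Intervals are 95% Clopper-Pearson intervals and cover counting error only, without variation between libraries. They may be too narrow even for counting error, since PCR reads are not independent molecules.

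The members and gene lists were chosen with earlier results of these data known. Named were all 9 genes, every Gfi1b transcript, the leading transcript of each other gene and those at 10% or more in either library, any Kdm1a transcript with an exon of 12 bases, and of each list the 4 highest genes and those under 1 TPM in both libraries. Others are named as chosen after their values were seen, as were the Y-chromosome genes and Xist. Some genes of the lists are not reported here by name. Alternatives were other TPM minimums, FPKM, counts scaled to a fixed total, posterior means, TPM without globin and mitochondrial genes, other scalings, filters and pseudocounts, and each library left out. TPM of complete coding transcripts and the common coefficient of variation were added after the data were seen.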

Additional observations from a re-analysis of the deposited data

How the results depend on the processing

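The number of the 9 genes detected was 8 under FPKM, counts scaled to a fixed total, posterior means, complete coding transcripts and with either library alone, and 8, 7 and 6 at minimums of 0.5, 5 and 10 TPM. The number of neighbouring pairs apart was 7, and 6 with complete coding transcripts. The number called between the libraries was 7 under DESeq2 size factors, library totals, posterior counts and either count filter. It was 0 with a coefficient of variation of 0.1 added and 0 with the common one of 0.3, because those settings put the spread between libraries into the error. Under library totals Rcor1 was gained and Kdm1b lost. In expected counts, which are not per length, the mean ratio was 5.85 for Kdm1a over Kdm1b, 5.62 for Rcor1 over Rcor3 and 2.44 for Rcor1 over Rcor2. With complete coding transcripts Rcor1 over Rcor3 was 3.28. The ratio of Gfi1b to Gfi1 was 8938 as deposited and 2638 with posterior mean TPM, a move of over 1.5 times on 15 and 4 counts of Gfi1. With 1 library left out the ratios ran from 1232 to 16644 for Gfi1b over Gfi1, 6.71 to 10.2, 1.39 to 2.04 and 1.01 to 1.16, and the long form of Gfi1b from 91.67% to 94.52%. With complete coding transcripts the order of Rcor3 and Kdm1a reversed, with Kdm1a above Rcor3 in both libraries. Log2 ratios between libraries were not computed on that measure. Under the other scalings, count filters and posterior counts no tested log2 ratio changed sign. Among the 9 gene levels depth limits Gfi1 alone, with 15 and 4 counts. Some transcript shares also rest on few counts, such as that of Rcor3-208 on 46.1 and 33.4 in replicates 1 and 2. No paired analysis was possible because there was only 1 group.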

Other observations

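Of 4 amine oxidases related to LSD1, only the polyamine oxidase Paox reached 1 TPM in both libraries, against 39.0% of all protein-coding genes. Paox had 4.15 and 7.54 TPM in replicates 1 and 2. Maoa, a mitochondrial monoamine oxidase, had 0.48 and 0.37 TPM, the spermine oxidase Smox 0.03 and 0.04 TPM, and Maob 0 counts. LSD1 and LSD2, the histone-directed enzymes of the family, lay at 26.3 and 19.4 TPM and at 2.59 and 2.89 TPM.

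Of 11 genes described elsewhere as targets of GFI1 or GFI1B, 7 reached 1 TPM in both libraries, against 39.0% of all protein-coding genes. The median of the list was 3.98 TPM. The growth regulator Myc led with 686 and 839 TPM in replicates 1 and 2, above Gfi1b itself at 394 and 499 TPM. The cell cycle inhibitor Cdkn1a had 85.8 and 93.8 TPM, the survival gene Bcl2l1 53.5 and 78.4 TPM and the progenitor factor Myb 43.1 and 34.0 TPM. Low in both libraries were Gfi1, Tgfbr3 at 0.13 and 0.14 TPM, and Hoxa9 with 0 counts. With 1 group and no change of Gfi1b, these levels do not show whether any of them was repressed.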
